A study of Homo sapiens with 17 samples.

Results

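Complement components and regulators were followed as 9 named genes, chosen by symbol from a list of complement proteins. The list was drawn up with earlier results of these data known, so every value here is a description and no test was run on it. Of the 9 genes, 6 had a row among the 9699 genes of the expression table: C3, C1S, SERPING1, CD46, CD55 and CD59. C1R, CFB and CFI had no row under those symbols and were not analysed here. The study limited its analyses to transcripts with at least 40 reads in both assays in at least 1 condition. A gene without a row may have fallen short of this rule. A gene at the floor in most columns may have its row only through its high columns.

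The study set RNA-Seq, which measures mRNA levels, beside Ribo-Seq, which counts the mRNA fragments that ribosomes shield from nuclease, in BJ cells, an established line of human fibroblasts immortalized with hTERT. Proliferating cells grew in medium with 10% fetal calf serum, and quiescent cells were deprived of serum. Pre-senescent and senescent cells carried RASG12V, an oncogenic form of RAS, under a tamoxifen switch and had been kept in 4-OHT tamoxifen (1e-07 M), the first for 5 days and the second for 14 days. The last group, labelled transformed, carried hTERT, SV40 small T and a stable knockdown of p16INK4A among its changes, and received RASG12V from a retrovirus. The labels do not state whether the proliferating and quiescent cells also carried the inducible RASG12V. The row of HRAS read 2415.28 FPKM and 1283.52 FPKM in the proliferating RNA columns of run 1 and run 2, and 311.51 FPKM in the column labelled transformed, of run 2.

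Levels were in FPKM, fragments per kilobase of transcript (RNA-Seq) or of coding sequence (Ribo-Seq) scaled to the number of reads, and the authors had set every value below 1.0 to 1.0, called the floor here. Each assay had 6 columns for 5 conditions. The proliferating culture of run 1 and the quiescent culture were each 1 column that combined 2 samples in both assays, and the pre-senescent RNA column also combined 2 samples. Every other column was 1 library. The 2 sequencer runs held different cultures: proliferating, quiescent and pre-senescent cells in run 1, and another proliferating culture, senescent cells and the cells labelled transformed in run 2. Each condition was therefore set against the proliferating column of its own run, and a difference of at least 2-fold counted as a call. No condition had replicate columns within a run, so values carry no SD and no p-value. The difference between the proliferating columns of the 2 runs was the only measure of spread between cultures of 1 condition, and it joins the culture with the run.

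Some labels and libraries need a caution before the results. The condition fields of the senescent and the run 2 proliferating Ribo-Seq samples are exchanged against their titles, and the titles were used. MKI67, a proliferation marker, was at the floor in the senescent columns of both assays and 43.02 FPKM in the proliferating Ribo-Seq column of run 2. Across all genes the senescent Ribo-Seq column had a Pearson r of 0.897 with the senescent RNA column and of 0.780 with the proliferating RNA column of run 2. The proliferating Ribo-Seq column of run 2 had an r of 0.875 with its own RNA column and of 0.796 with the senescent one. These values are in the direction of the titles. CDKN2A RNA, the target of the p16INK4A knockdown, was 12.64 FPKM in the library labelled transformed and 6.75 FPKM in its control, against the label, while CDKN2A Ribo-Seq was 5.51 FPKM and 8.92 FPKM, in the direction of the label. The row may hold reads of both p16INK4A and ARF, so it cannot serve as a check of the p16INK4A knockdown alone. The name "labelled transformed" is kept for that reason. All 12 fibroblast markers had a row and none was at the floor in RNA. Of the other cell types, 2 of 10 monocyte or macrophage markers had a row (CD14 and CD68), 0 of 11 hepatocyte markers, 1 of 7 endothelial markers (TIE1) and 3 of 6 epithelial markers (KRT8, KRT18 and KRT19). Their levels differed widely. In RNA, CD14 was 1.67 FPKM at most and CD68, a lysosomal protein, 38.32 to 132.25 FPKM, TIE1 reached 6.56 FPKM, and the summed epithelial markers ran from 105.15 to 312.56 FPKM, most of it from KRT18.

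Complement is a cascade of serum and membrane proteins that tags targets for uptake and can pierce membranes. Activation by antibody (through the proteases C1R and C1S), by lectins or by the alternative pathway converges on cleavage of C3, the central component, whose larger fragment binds covalently to nearby surfaces. Soluble and membrane-bound regulators limit the reaction on the body's own cells: SERPING1 inactivates the C1 proteases, CD55 speeds the decay of the enzymes that cleave C3, CD46 is a cofactor for the destruction of surface-bound C3 fragments by CFI, and CD59 blocks assembly of the membrane attack complex. The liver makes most circulating complement, and fibroblasts also secrete several components.

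C3 was at or close to the floor in every run 1 column and in the proliferating cells of run 2, and high in senescent cells and in the cells labelled transformed. C3 RNA was listed at 1.00 FPKM in both proliferating columns, in quiescent cells and in pre-senescent cells, at 36.97 FPKM in senescent cells and at 94.36 FPKM in the cells labelled transformed. Its Ribo-Seq level was 1.00 FPKM in proliferating cells of run 1, 1.01 FPKM in quiescent, 1.00 FPKM in pre-senescent and 1.92 FPKM in run 2 proliferating cells, against 81.36 FPKM in senescent cells and 137.77 FPKM in the cells labelled transformed. No value of the high pair came near any of the other 4 columns in either assay. Because the RNA control stood at the floor, the RNA difference is a bound: C3 RNA was at least 37.0-fold higher in senescent cells and at least 94.4-fold higher in the cells labelled transformed. In Ribo-Seq the differences were 42.4-fold (5.41 on the log2 scale) and 71.8-fold (6.17 on the log2 scale). Its RNA log2 difference in senescent cells, a bound of 5.21, was above that of 99.99% of all genes. C3 was thus the member with the widest range over columns, at least 94.4-fold in RNA. By the read rule given above, C3 may have its row only through its high columns. Its rank among all genes is therefore a description of those columns. In bulk RNA, a larger share of cells that express a gene and more of its RNA per cell cannot be told apart.

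After 5 days of RASG12V, C3 was still listed at the floor in both assays. The table does not show what happened between 5 and 14 days, and the pre-senescent and senescent columns belong to different runs.

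**Figure D1:**
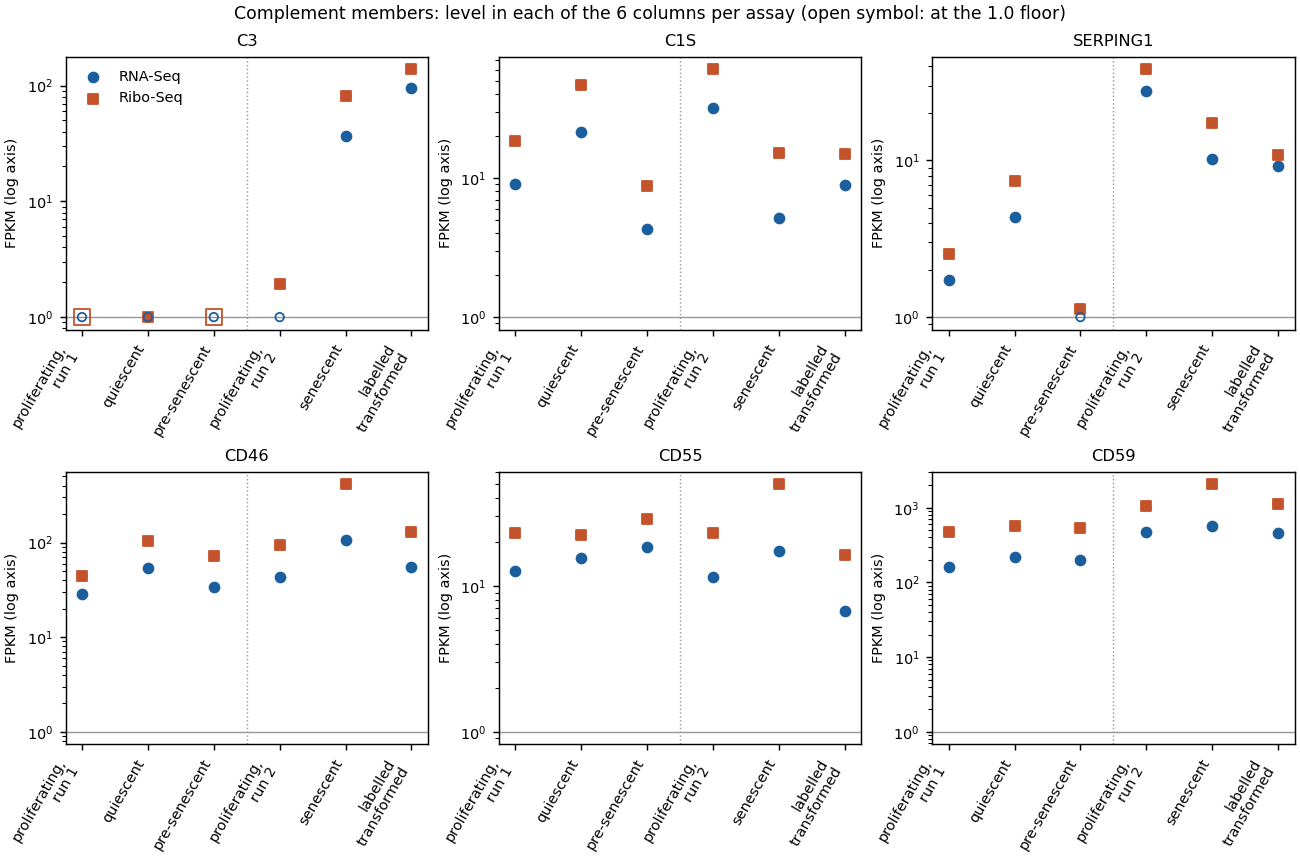
Level of each of the 6 members in FPKM (log axis) in the 6 columns of RNA-Seq (blue circles) and Ribo-Seq (red squares), with run 1 left and run 2 right of the dotted line and open symbols at the floor of 1.0. C3 stands at or near the floor except in senescent cells and cells labelled transformed, while C1S and SERPING1 are higher in the proliferating column of run 2 than in that of run 1.

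C1S, the protease that cleaves C4 and C2 once the C1 complex is engaged, was highest in the proliferating cells of run 2 and lowest in pre-senescent cells. Its RNA read 9.11 FPKM in proliferating, 21.40 FPKM in quiescent and 4.33 FPKM in pre-senescent cells of run 1. In run 2 it read 31.75 FPKM in proliferating cells, 5.17 FPKM in senescent cells and 8.88 FPKM in the cells labelled transformed. Within run 2, C1S RNA was thus 6.14-fold lower in senescent cells and 3.58-fold lower in the cells labelled transformed, and within run 1 it was 2.35-fold higher in quiescent and 2.10-fold lower in pre-senescent cells. In Ribo-Seq C1S read 18.55, 46.84 and 8.75 FPKM in proliferating, quiescent and pre-senescent cells, and 60.20, 15.06 and 14.98 FPKM in proliferating cells, senescent cells and cells labelled transformed. The directions against the control were those of RNA in all 4 conditions.

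The proliferating columns differed from each other by 3.49-fold in C1S RNA and 3.25-fold in C1S Ribo-Seq, more than either run 1 difference. The quiescent level lay between them in both assays. The senescent, pre-senescent and labelled transformed levels were below both proliferating columns in both assays, but only the pre-senescent level was more than 2-fold below the nearer of them (2.10-fold in RNA and 2.12-fold in Ribo-Seq). Senescent C1S RNA was 1.76-fold below the nearer column, and C1S RNA in the cells labelled transformed 1.03-fold.

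SERPING1, the serpin that inhibits C1R and C1S, followed the same order as C1S within run 1. Its RNA was 1.72 FPKM in proliferating, 4.38 FPKM in quiescent and 1.00 FPKM (the floor) in pre-senescent cells. In run 2 it was 27.59 FPKM in proliferating cells, 10.20 FPKM in senescent cells and 9.17 FPKM in the cells labelled transformed. The matching Ribo-Seq levels were 2.51, 7.40 and 1.13 FPKM in run 1 and 37.99, 17.37 and 10.76 FPKM in run 2. Against its own control, SERPING1 RNA was 2.55-fold higher in quiescent cells, 2.70-fold lower in senescent cells and 3.01-fold lower in the cells labelled transformed. The Ribo-Seq differences were 2.95-fold, 2.19-fold and 3.53-fold in the same directions, and 2.22-fold lower in pre-senescent cells.

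The proliferating columns themselves stood 16.04-fold apart in SERPING1 RNA and 15.1-fold apart in Ribo-Seq, more than any difference between a condition and its control. Quiescent cells, senescent cells and cells labelled transformed all lay between the proliferating columns in both assays, and the direction of each turned over when the control of the other run was used. Senescent SERPING1 RNA, for instance, was -1.44 on the log2 scale against its own control and 2.57 against the proliferating column of run 1. Only the pre-senescent level lay below both proliferating columns, in both assays.

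Fibroblast markers moved with these genes in some columns and not in others. The summed RNA of the 12 fibroblast markers ranged from 5847.75 FPKM in senescent cells to 10407.74 FPKM in the cells labelled transformed, with 7589.78 FPKM and 9466.33 FPKM in the proliferating columns of run 1 and run 2. Of the 12 markers, 9 were higher in quiescent cells than in their control, 10 were lower in pre-senescent cells, 11 were lower in senescent cells and 10 were higher in the run 2 than in the run 1 proliferating column, in each case the direction of C1S and SERPING1. In the cells labelled transformed, where C1S and SERPING1 were lower, 5 markers were higher and 7 lower, and the sum was above its control. DCN, the matrix proteoglycan decorin, read 27.61, 82.58 and 3.68 FPKM in proliferating, quiescent and pre-senescent RNA of run 1, and 164.26, 11.30 and 15.52 FPKM in the proliferating, senescent and labelled transformed RNA of run 2. Like C1S and SERPING1, DCN, which was chosen after its values were seen, was higher without serum and higher in the run 2 than in the run 1 control. Other fibroblast markers went the other way. COL1A1, THY1 and FN1 RNA was lower in quiescent cells than in their control. VIM and FN1 RNA was lower in the run 2 than in the run 1 control. KRT19, of the epithelial list, was 39.76 FPKM in the proliferating RNA of run 2 and 4.43 FPKM or less in every other RNA column. The part of culture and run in the C1S and SERPING1 differences was not tested.

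The membrane regulators CD46, CD55 and CD59 were measured in every column, and in Ribo-Seq each of the 3 was highest in senescent cells. CD46 RNA was 28.64, 53.99 and 34.25 FPKM in proliferating, quiescent and pre-senescent cells, and 43.33, 105.17 and 55.03 FPKM in proliferating cells, senescent cells and cells labelled transformed. CD46 Ribo-Seq was 44.47, 102.73 and 71.41 FPKM in run 1 and 93.51, 415.19 and 130.65 FPKM in run 2, in the same order. Senescent cells held the highest CD46 level by a wide margin in both assays. The difference from the run 2 control was 2.43-fold in RNA and 4.44-fold in Ribo-Seq, and the run 2 control was itself the higher of the proliferating columns, which differed by 1.51-fold and 2.10-fold. Quiescent CD46 was 2.31-fold above its control in Ribo-Seq but only 1.10-fold above the proliferating column of run 2.

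CD55, also called decay-accelerating factor, had nearly equal levels in the proliferating columns, with 12.66 and 11.57 FPKM in RNA and 22.91 and 23.00 FPKM in Ribo-Seq for run 1 and run 2. In quiescent cells it was 15.56 FPKM in RNA and 22.21 FPKM in Ribo-Seq, and in pre-senescent cells 18.38 FPKM and 28.84 FPKM. Senescent cells had 17.33 FPKM in RNA and 49.88 FPKM in Ribo-Seq, whereas the cells labelled transformed had 6.75 FPKM and 16.32 FPKM, the lowest CD55 level of the 6 columns in each assay. The senescent difference was 0.58 on the log2 scale in RNA, short of a call, and 2.17-fold (1.12 on the log2 scale) in Ribo-Seq. The level in the cells labelled transformed was 1.71-fold lower in RNA and 1.41-fold lower in Ribo-Seq, short of a call in both.

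CD59, or protectin, was the most abundant member per unit of length in every column. Its RNA was 161.10, 220.77 and 199.60 FPKM in proliferating, quiescent and pre-senescent cells of run 1 and 471.69, 562.37 and 458.92 FPKM in proliferating cells, senescent cells and cells labelled transformed of run 2. Ribo-Seq gave 470.07, 573.64 and 541.74 FPKM in run 1 and 1064.75, 2078.94 and 1120.99 FPKM in run 2. Every run 2 value was above every run 1 value in both assays, and the proliferating columns stood 2.93-fold apart in RNA and 2.27-fold in Ribo-Seq. Within run 2 the senescent difference was 1.19-fold in RNA and 1.95-fold in Ribo-Seq, just below the 2-fold limit.

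CD46, CD55 and CD59 are shown here by the 300 bases around a transcript start (250 before and 50 after it), because these 3 membrane regulators were highest together in senescent Ribo-Seq. The sequences are from RefSeq (GRCh38.p14), which differs from the hg19 build of the deposited table, so no coordinate of the table is involved. Of the 6 members with a row, 3 had a promoter entry, and C3, C1S and SERPING1 had none. CD46 lies on the plus strand (chr1:207751788-207752087, the first of 2 entries), CD55 on the plus strand (chr1:207321428-207321727, its 1 entry) and CD59 on the minus strand (chr11:33736430-33736729, the first of 4 entries). Capitals mark motif matches.
CD46: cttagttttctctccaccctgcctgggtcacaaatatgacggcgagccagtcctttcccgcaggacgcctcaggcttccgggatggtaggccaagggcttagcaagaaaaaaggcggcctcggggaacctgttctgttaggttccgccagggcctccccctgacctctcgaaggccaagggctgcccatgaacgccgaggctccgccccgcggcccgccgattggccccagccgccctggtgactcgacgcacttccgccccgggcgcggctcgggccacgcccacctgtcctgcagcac
CD55: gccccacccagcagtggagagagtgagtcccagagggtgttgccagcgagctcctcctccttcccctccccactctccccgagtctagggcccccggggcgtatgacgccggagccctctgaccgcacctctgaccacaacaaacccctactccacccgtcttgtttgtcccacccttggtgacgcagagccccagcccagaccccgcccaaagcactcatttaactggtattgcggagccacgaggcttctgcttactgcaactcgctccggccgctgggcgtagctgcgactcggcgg
CD59: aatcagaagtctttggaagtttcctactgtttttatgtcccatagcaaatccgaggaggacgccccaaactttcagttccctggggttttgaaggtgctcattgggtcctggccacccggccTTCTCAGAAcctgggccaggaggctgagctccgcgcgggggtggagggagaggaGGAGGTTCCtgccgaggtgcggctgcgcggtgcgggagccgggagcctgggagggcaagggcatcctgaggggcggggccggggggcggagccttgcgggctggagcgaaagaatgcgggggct
Of 5 motifs searched on both strands, GGNNNTTCC (NF-kB), GAAANNGAA (ISRE), TTCNNNGAA (GAS), TGANTCA (AP-1) and TTNCNNAA (C/EBP), none had a match in the CD46 or CD55 window. The CD59 window held 1 match to the NF-kB letters, whose first base lay 74 bases before the start, and 1 to the GAS letters 128 bases before it. The second CD59 entry, which overlaps the first, held the same pair. The third entry held 2 matches to the C/EBP letters and the fourth 3 matches to the AP-1 letters. Among all 35116 promoters in the table, 20.1% held a match to the NF-kB letters, 8.11% to ISRE, 7.66% to GAS, 7.71% to AP-1 and 36.8% to C/EBP. A match is a run of letters and not evidence of binding, and the windows without a match say nothing of any factor.

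The count of members past 2-fold can be read against all genes. In RNA, 2 of the 6 members passed in quiescent cells (C1S and SERPING1, both higher), where 6.39% of all genes did, and 1 of 6 in pre-senescent cells (C1S, lower), where 3.77% did. C3, at the floor in both columns of these comparisons, counts as not past 2-fold, as such genes do among all genes. In senescent cells 4 of 6 members passed, C3 and CD46 higher and C1S and SERPING1 lower, beside 20.1% of all genes. In the cells labelled transformed 3 of 6 passed, C3 higher and C1S and SERPING1 lower, beside 10.2%. C3 may have its row only through these high columns, so its part in both counts, here and in Ribo-Seq, is not independent of them. Between the proliferating columns, with no change of condition, 3 of 6 members passed (C1S, SERPING1 and CD59, all higher in run 2) beside 7.85% of all genes. As many members thus differed between the proliferating cultures as between the cells labelled transformed and their control.

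In Ribo-Seq the shares of all genes past 2-fold were higher. Of the members, 3 of 6 passed in quiescent cells (C1S, SERPING1 and CD46, all higher) beside 17.1% of all genes, and 2 of 6 in pre-senescent cells (C1S and SERPING1, lower) beside 17.4%. In senescent cells 5 of 6 passed, C3, CD46 and CD55 higher and C1S and SERPING1 lower, beside 27.6%. In the cells labelled transformed 3 of 6 passed, C3 higher and C1S and SERPING1 lower, beside 12.7%, and between the proliferating columns 4 of 6 passed (C1S, SERPING1, CD46 and CD59, all higher in run 2), beside 18.6%. The median log2 difference of the 6 members in senescent cells was 0.42 in RNA, where all genes had a median of -0.0017, and 1.04 in Ribo-Seq, where all genes had -0.10. In the cells labelled transformed the medians were -0.41 for the members and 0.085 for all genes in RNA, and -0.21 and 0.0033 in Ribo-Seq.

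A stricter count asked for at least 2-fold from both proliferating columns in the same direction, a rule added after the data were seen. No member met it in quiescent cells, in RNA (2.58% of all genes) or in Ribo-Seq (6.54%). In pre-senescent cells C1S met it in RNA (2.54% of all genes) and C1S and SERPING1 in Ribo-Seq (9.23%), all lower. In senescent cells C3 and CD46 met it in RNA (15.6%), and C3, CD46 and CD55 in Ribo-Seq (20.7%), all higher. In the cells labelled transformed C3 alone met it, in RNA (5.63%) and in Ribo-Seq (6.90%). The low C1S and SERPING1 of senescent cells and of cells labelled transformed did not meet it.

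**Figure D2:**
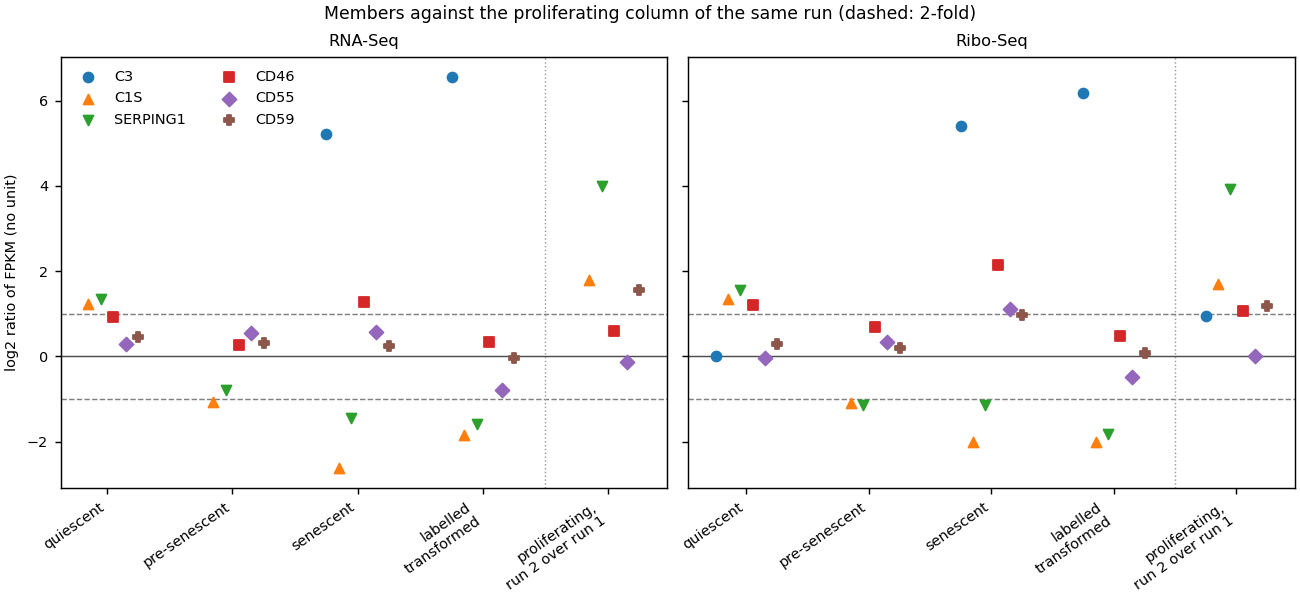
Log2 ratio of FPKM of each member in each condition over the proliferating column of its own run, and of the run 2 over the run 1 proliferating column (right of the dotted line), in RNA-Seq and Ribo-Seq, with dashed lines at 2-fold and members missing where both columns are at the floor. C3 stands far above 2-fold in senescent cells and cells labelled transformed, and SERPING1 differs more between the proliferating columns (4.00 in RNA) than in any condition.

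Translation efficiency (TE), the log2 ratio of Ribo-Seq to RNA-Seq FPKM of a gene in 1 column, asks whether ribosome load moved apart from mRNA. It was highest in senescent cells for each of the 6 members, among the columns where it could be formed. For C3 these were only the senescent cells and the cells labelled transformed. For SERPING1 the quiescent value was close (0.76 against 0.77). The share of all genes with their highest TE in senescent cells is not given here, so this order is not read as particular to the members. CD46 TE was 0.63, 0.93 and 1.06 in proliferating, quiescent and pre-senescent cells, and 1.11, 1.98 and 1.25 in proliferating cells, senescent cells and cells labelled transformed. CD59 TE was 1.54, 1.38 and 1.44 in run 1 and 1.17, 1.89 and 1.29 in run 2, in the same order. CD55 TE was 0.86, 0.51 and 0.65 in run 1 and 0.99, 1.53 and 1.27 in run 2. The 3 membrane regulators thus had their highest TE in the same column. C1S TE was 1.03, 1.13 and 1.01 in run 1 and 0.92, 1.54 and 0.75 in run 2. SERPING1 TE was 0.55 and 0.76 in proliferating and quiescent cells, with no value in pre-senescent cells because its RNA stood at the floor, and 0.46, 0.77 and 0.23 in run 2. C3 gave a TE only in senescent cells, 1.14, and in the cells labelled transformed, 0.55.

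Against the control of its run, TE in senescent cells was higher by 0.87 on the log2 scale for CD46, 0.71 for CD59, 0.62 for C1S, 0.53 for CD55 and 0.31 for SERPING1. All 5 members with a value were above 0, where 47.4% of all genes were, and the members' median of 0.62 stood beside -0.041 for all genes. None passed 2-fold, the limit that 8.55% of all genes passed. TE differences between the proliferating columns of the same genes ran from -0.37 (CD59) to 0.47 (CD46), with 0 of 5 past 2-fold beside 8.51% of all genes. In quiescent cells they ran from -0.34 (CD55) to 0.29 (CD46), with 0 of 5 past 2-fold beside 7.06%. In pre-senescent cells they ran from -0.21 (CD55) to 0.43 (CD46), with 0 of 4 beside 13.2%. In the cells labelled transformed they ran from -0.23 (SERPING1) to 0.28 (CD55), with 0 of 5 beside 2.69%. For each of the 5 members the senescent TE difference was larger in size than its differences in the other conditions and than that between the proliferating columns. The share of all genes for which this held is not given here, so it is not read as particular to the members. Ribo-Seq of senescent cells was 1 library, so no spread stands behind that order.

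**Figure D3:**
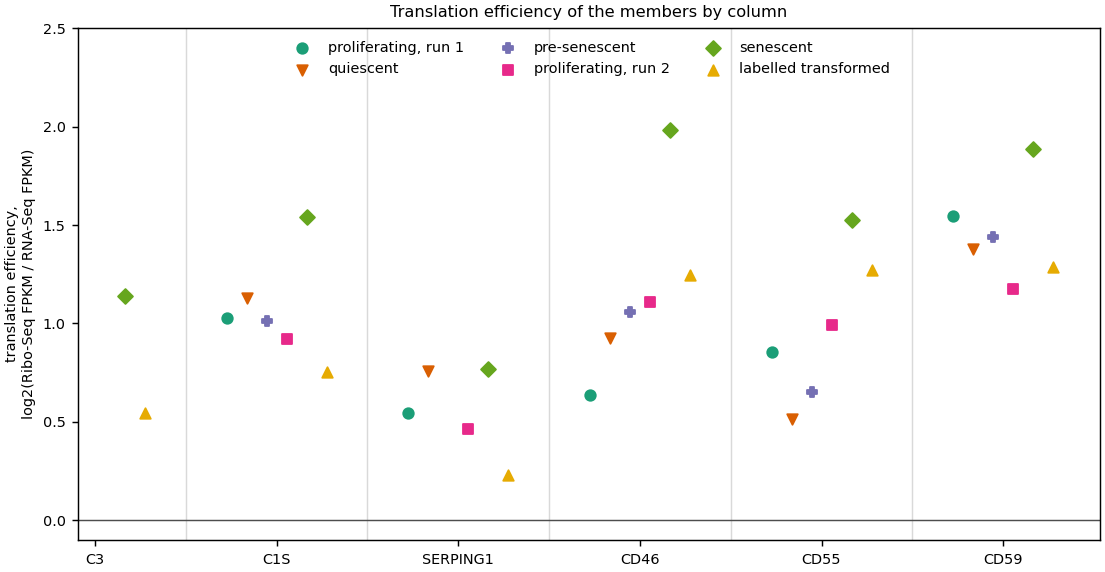
Translation efficiency, the log2 ratio of Ribo-Seq to RNA-Seq FPKM, of the 6 members in each of the 6 columns, with points missing where a level is at the floor. The senescent column (green diamonds) is the highest for every member among its columns with a point, up to 1.98 for CD46, though only narrowly for SERPING1. The share of all genes with this order is not given here.

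Senescent cells and cells labelled transformed both carried RASG12V and were sequenced in the same run, so they could be compared without a control. HRAS differed widely between them, at 2087.48 FPKM in senescent cells and 311.51 FPKM in the cells labelled transformed in RNA, and at 4009.57 FPKM and 212.30 FPKM in Ribo-Seq, and its part in the member differences was not tested. In RNA, C3 was 2.55-fold lower in senescent cells and CD55 was 2.57-fold higher, the 2 of 6 members past 2-fold, beside 23.2% of all genes. CD46 followed at 1.91-fold higher, C1S was 1.72-fold lower, and CD59 (1.23-fold higher) and SERPING1 (1.11-fold higher) were close to equal. In Ribo-Seq 2 of 6 members passed, CD46 at 3.18-fold and CD55 at 3.06-fold higher in senescent cells, beside 30.0% of all genes. CD59 was 1.85-fold and SERPING1 1.61-fold higher, C3 was 1.69-fold lower, and C1S was equal within 0.01 on the log2 scale. TE was higher in senescent cells for 6 of 6 members, where 52.7% of all genes were, by 0.25 (CD55) to 0.79 (C1S). The members' median was 0.59 against 0.034 for all genes, and 0 of 6 passed 2-fold beside 4.97% of all genes. C3 was therefore the higher in the cells labelled transformed, and CD46, CD55 and CD59 the higher in senescent cells, in both assays. Only CD55 passed 2-fold in both, and CD59 passed it in neither.

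Of 54 symbols of other complement pathway genes, which include both C5AR2 and its other name GPR77, 9 had a row. Among the initiating proteins, MASP1, a protease of the lectin pathway, had RNA levels of 20.72, 30.88 and 4.12 FPKM in proliferating, quiescent and pre-senescent cells, and of 90.66, 5.46 and 79.46 FPKM in proliferating cells, senescent cells and cells labelled transformed. MASP1 RNA was thus low in both columns of cells under the tamoxifen switch, by -2.33 and -4.05 on the log2 scale, and near its control in the cells labelled transformed (-0.19). COLEC12, a scavenger receptor with a collectin domain, read 3.40, 15.81 and 4.00 FPKM in run 1 RNA and 26.24, 3.21 and 1.5 FPKM in run 2 RNA. Its proliferating columns differed by 2.95 on the log2 scale, and senescent COLEC12 lay below both of them only narrowly. COLEC10, a collectin, was at the floor in both proliferating RNA columns and reached 5.99 FPKM in senescent cells and 3.31 FPKM in the cells labelled transformed. C1RL, a C1R-like protease, was 2.89 FPKM in the cells labelled transformed against 8.02 FPKM in its control.

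Among regulators, receptors and other partners of the cascade, CLU, which keeps the terminal complex out of membranes, was 18.37 FPKM in quiescent RNA against 7.52 FPKM in its control, but 23.64 FPKM in the proliferating RNA of run 2. CLU RNA was highest, and nearly equal, in senescent cells (30.08 FPKM) and in the cells labelled transformed (30.38 FPKM). PTX3, a pattern-recognition protein that binds C1q, was 169.64, 317.45 and 74.45 FPKM in run 1 RNA and 91.70, 121.36 and 192.67 FPKM in run 2 RNA. C3AR1, the receptor of the small C3 fragment, was at the floor in both proliferating columns in both assays and read 2.86 FPKM in RNA and 6.24 FPKM in Ribo-Seq in pre-senescent cells. CSMD2 was at the floor in both proliferating RNA columns and 3.07 FPKM in the cells labelled transformed. C1QBP, the remaining gene of the 9, stayed within 2-fold of its control in every column.

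Past 2-fold in RNA were 2 of 9 genes in quiescent cells (both higher, beside 6.39% of all genes), 3 in pre-senescent cells (1 higher and 2 lower, beside 3.77%), 3 in senescent cells (1 higher and 2 lower, beside 20.1%) and 5 in the cells labelled transformed (3 higher and 2 lower, beside 10.2%). Among the higher genes, COLEC10 (senescent cells and cells labelled transformed), CSMD2 (cells labelled transformed) and C3AR1 (pre-senescent cells) were at the floor in both proliferating RNA columns. By the read rule, each may have its row only through its high columns. Their part in these counts, here and in Ribo-Seq, is not independent of those columns. Between the proliferating columns 3 of 9 passed, all higher in run 2, beside 7.85%. In Ribo-Seq the counts were 3 of 9 in quiescent cells (17.1% of all genes), 5 in pre-senescent cells (17.4%), 4 in senescent cells (27.6%), 4 in the cells labelled transformed (12.7%) and 4 between the proliferating columns (18.6%). The median log2 difference of the 9 genes in senescent cells was 0.35 in RNA and 0.79 in Ribo-Seq, with values at the floor taken as 1.0. TE passed 2-fold for 1 of 6 genes with a value in pre-senescent cells (C1RL, -1.86, beside 13.2% of all genes). It also passed for 1 of 8 between senescent cells and cells labelled transformed (CSMD2, 1.18, beside 4.97%), and for none elsewhere. Both differences rest on levels near the floor. C1RL Ribo-Seq was 1.14 FPKM in pre-senescent cells, and CSMD2 RNA was 1.09 FPKM in senescent cells.

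**Figure D4:**
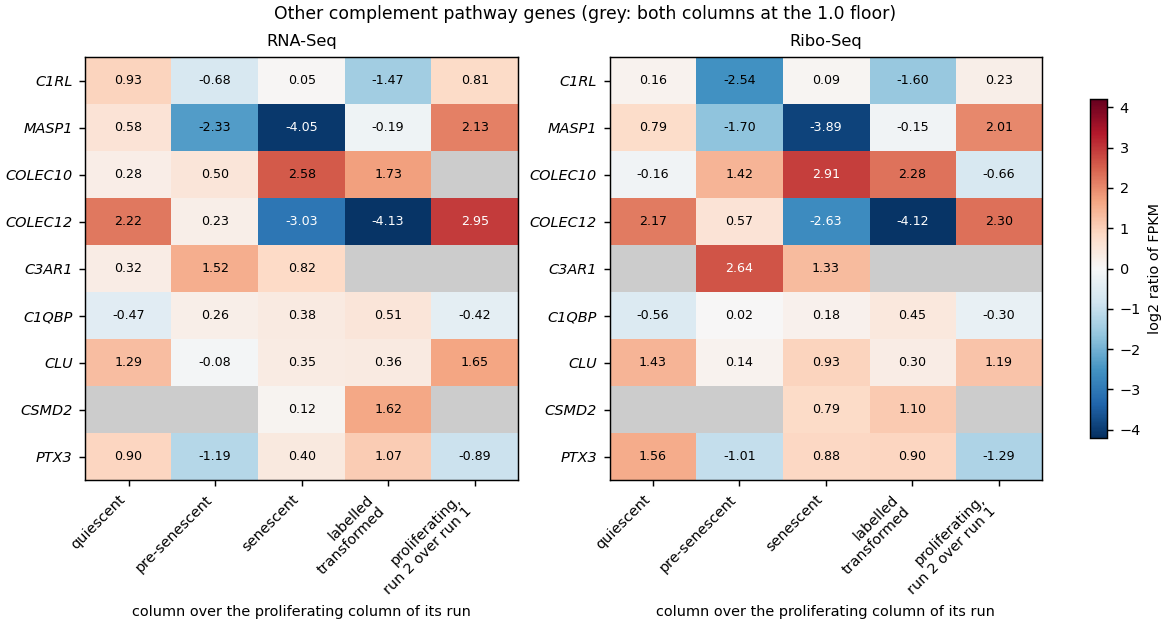
Log2 ratio of FPKM of the 9 other complement pathway genes in each condition over the proliferating column of its run, and of the run 2 over the run 1 proliferating column, in RNA-Seq and Ribo-Seq, with grey where both columns are at the floor. MASP1 (-4.05 in senescent RNA) and COLEC12 (-4.13 in the RNA of cells labelled transformed) have the lowest values, and both also differ strongly between the proliferating columns.

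Of the 3343 genes that reached 10 FPKM and had a range of at least 2-fold in RNA, the 5 whose log2 RNA levels followed those of C3 most closely over the 6 columns were PPT2 (Pearson r = 0.996), CD44 (0.981), HERC3 (0.979), IRAK2 (0.974) and SLC26A11 (0.968). The 6 points share 2 runs, and 4 of them lie at the C3 floor, so r rests on the contrast of 2 columns with the rest. PPT2, a lysosomal thioesterase, read between 10.01 and 11.15 FPKM in the 4 columns where C3 was at the floor, 20.57 FPKM in senescent cells and 24.74 FPKM in the cells labelled transformed. CD44, the hyaluronan receptor, read between 272.40 and 310.69 FPKM in those 4 columns, then 594.21 and 589.27 FPKM. IRAK2, a kinase downstream of interleukin-1 and Toll-like receptors, read between 1.94 and 3.12 FPKM, then 9.20 and 16.92 FPKM. All 5 kept a far narrower range than C3.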

How the data were processed

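RNA-Seq and Ribo-Seq of 17 samples of the BJ fibroblast line were read from 1 deposited table of 12 columns and 9699 genes. According to its methods and the submitters' processing notes (Bowtie, hg19, versions not given in the sources used here), the authors aligned reads to 1 transcript per gene from Ensembl release 65, the one with the longest coding sequence. Uniquely mapped reads gave FPKM, over the whole transcript for RNA-Seq and over the coding sequence for Ribo-Seq, and lower values were raised to a floor of 1.0. RNA libraries of run 1 were paired-end and those of run 2 single-end. How samples were joined in the combined columns, the proliferating and quiescent columns of run 1 and the pre-senescent RNA column, is not given in the sources used here. Because 1 isoform stands for a gene, a change of isoform can appear as a change of level or of TE. The floor hides the low levels, and the table holds no read counts or transcript lengths. The paper gives read totals for each library, but the number of reads behind each single value is unknown. Median FPKM ran from 11.99 to 13.78 over the RNA-Seq columns and from 14.26 to 16.32 over the Ribo-Seq columns, and 248 to 510 and 266 to 556 genes were at the floor.

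The deposited FPKM were used with no pseudocount. Samples were grouped by their labels, or by title where the condition field disagreed. Log2 ratios were taken against the proliferating column of the same run, TE was the log2 ratio of Ribo-Seq to RNA-Seq FPKM with none formed at the floor, and 2-fold was a call. No test was made, since each condition had 1 column per assay and run and the proliferating columns came from different runs. Alternatives were the other proliferating column, the mean of both, median centring, a pseudocount of 1, genes reaching FPKM 5, calls at 1.5-fold and 3-fold, a level-dependent limit of 1.75 local SDs over 200 genes on either side, and the exchanged Ribo-Seq columns. Named genes were all 9 members, those of the other complement pathway genes past 2-fold in RNA in at least 1 comparison, and the 5 genes most like the member of widest RNA range. C1QBP, DCN, KRT19 and the other state and marker genes with values were named outside this rule after their values were seen. A gene of the pathway list and a knockdown target are not reported here. The members, gene lists and motifs were chosen with earlier results of these data known. Cell type marker lists (fibroblast, monocyte or macrophage, hepatocyte, endothelial, epithelial) and interferon-induced and NF-kB lists were also read. The scripts were tested on simulated data. Python 3.11.15, numpy 2.4.6, pandas 2.3.3 and matplotlib 3.10.9 were used.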

Additional observations from a re-analysis of the deposited data

How the results depend on the processing

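Of the differences past 2-fold as reported, those of SERPING1 in quiescent cells, senescent cells and cells labelled transformed and of quiescent C1S changed sign with the control, while pre-senescent SERPING1 Ribo-Seq did not. Against the proliferating column of the other run the SERPING1 log2 difference turned to -2.66 (RNA) and -2.36 (Ribo-Seq) in quiescent cells, to 2.57 and 2.79 in senescent cells and to 2.41 and 2.10 in the cells labelled transformed. Against the mean of both proliferating columns it was -0.65 and -0.40, 0.57 and 0.83, and 0.41 and 0.14, respectively. C1S in quiescent cells turned to -0.57 (RNA) and -0.36 (Ribo-Seq) against the other control. Exchanging the senescent and run 2 proliferating Ribo-Seq columns follows their condition fields, against the MKI67 levels and correlations given above. With these columns exchanged, the senescent Ribo-Seq differences changed sign by construction. They became -5.41 for C3, 2.00 for C1S, 1.13 for SERPING1, -2.15 for CD46 and -1.12 for CD55. Past 2-fold were then 5 members in senescent TE and 2 in that of the cells labelled transformed. In Ribo-Seq of the cells labelled transformed, CD46 and CD55, both lower, were then past 2-fold in place of C3, C1S and SERPING1.

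Counts of members past 2-fold also moved, and where no value shows the cause, the cause was not tested. In RNA, quiescent cells went from 2 to 0 with the mean control, at 3-fold and from both columns, and to 1 with a pseudocount or the FPKM 5 filter. Pre-senescent cells went from 1 to 3 with the other control, to 2 with the mean control or at 1.5-fold, and to 0 with a pseudocount or at 3-fold. Senescent cells went from 4 to 2 at 3-fold and with local SDs, which kept C1S and C3 and lost CD46 and SERPING1. They also went to 2 from both columns, which kept C3 and CD46. The cells labelled transformed went from 3 to 1 with the mean control and from both columns. In Ribo-Seq, quiescent cells went from 3 to 1 with the other control or local SDs and to 0 with the mean control, at 3-fold and from both columns. Pre-senescent cells went from 2 to 1 with median centring, a pseudocount or the FPKM 5 filter and to 0 at 3-fold or with local SDs. Senescent cells went from 5 to 3 at 3-fold and with local SDs, which kept C1S, C3 and CD46 and lost CD55 and SERPING1. They also went to 3 from both columns, which kept C3, CD46 and CD55. The cells labelled transformed went from 3 to 1 from both columns. Senescent TE went from 0 to 1 with the other or the mean control and to 3 at 1.5-fold. The remaining 74 counts stayed within 1.5 times the reported one, but 15 of them held other members or directions. With the other control, the 2 in quiescent RNA were SERPING1 and CD59, both lower, and the 4 in senescent RNA were C3, SERPING1, CD46 and CD59, all higher. Of the 23 single log2 differences past 2-fold as reported, TE included, 12 changed sign under at least 1 alternative, as listed. With the control of the other run, 8 did. Among the 12, the C3, CD46, CD55 and senescent C1S differences turned only in Ribo-Seq with the columns exchanged, by construction. Of the 41 short of 2-fold, 25 changed sign under at least 1 alternative, 11 of them of CD59 and 7 of CD46. Against the other control, CD59 went from 0.45 to -1.10 in quiescent and from 0.31 to -1.24 in pre-senescent RNA, and CD46 from 0.26 to -0.34 in pre-senescent RNA and from 0.68 to -0.39 in pre-senescent Ribo-Seq.

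No paired analysis was possible because each condition has 1 column per assay and run, and no replicate could be left out for the same reason. Levels under 1.0 FPKM cannot be ranked, which leaves C3 in 4 RNA columns without a level.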

Other observations

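Gene lists that respond to inflammatory signals, of which C3 is a known target, were read beside the members. Whether these signals had a part in the level of C3 or of any other member was not tested. A list gene at the floor in its control may, like C3, have its row only through its high columns. Of 22 symbols of NF-kB target genes, which include both IL8 and its other name CXCL8, 16 had a row. In RNA, 11 of the 16 were past 2-fold in senescent cells (10 higher and 1 lower, beside 20.1% of all genes in either direction) and 13 in the cells labelled transformed (12 higher and 1 lower, beside 10.2%), with median log2 differences of 2.11 and 2.05 (floor values taken as 1.0 here and below). In pre-senescent cells 6 passed (5 higher, beside 3.77% of all genes) and in quiescent cells 5 (3 higher, beside 6.39%), and between the proliferating columns 4 (all higher in run 2, beside 7.85%). IL1B, a cytokine, differed by 4.72 and 6.09 on the log2 scale in senescent cells and cells labelled transformed, IL8, a neutrophil chemokine, by 4.69 and 5.56, and SOD2, the mitochondrial superoxide dismutase, by 3.21 and 2.45. CCL2, a monocyte chemokine, went the other way, by -2.42 and -1.55. Ribo-Seq gave 12 and 13 of 16 past 2-fold, beside 27.6% and 12.7% of all genes, with medians of 2.16 and 1.62. C3 was at the floor in pre-senescent cells, where IL1B was 3.12 and IL8 1.97 above the control on the log2 scale.

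Of 28 interferon-induced genes 27 had a row. In RNA 14 of the 27 were past 2-fold and higher in the cells labelled transformed, with none lower and a median of 1.16, beside 10.2% of all genes past 2-fold in either direction. In senescent cells 3 were higher and 8 lower, with a median of -0.26, beside 20.1%. In quiescent cells 14 were higher and 1 lower, with a median of 1.06, beside 6.39%, and in pre-senescent cells 1 was higher and 4 lower, beside 3.77%. Between senescent cells and cells labelled transformed 18 of 27 were past 2-fold, all lower in senescent cells (median -1.78), beside 23.2% of all genes. MX1, an antiviral GTPase, was 1.16 FPKM in the run 2 control, at the floor in senescent cells and 5.37 FPKM in the cells labelled transformed, while IFI27, at the floor in that control, was 8.44 and 15.76 FPKM. Between the proliferating columns 5 passed, all lower in run 2, beside 7.85%. Ribo-Seq medians were 1.21, -0.19, -0.98 and 0.84 in quiescent cells, pre-senescent cells, senescent cells and cells labelled transformed.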
